A study of Mus musculus with 6 samples.

Results

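AP-1 is a family of dimeric transcription factors, and the immediate-early genes are those that a cell transcribes within minutes of a stimulus without first making new protein. The genes described here are Fos, Fosb, Fosl1, Fosl2, Jun, Junb, Jund, Egr1, Atf3 and Zfp36, grouped by their known roles. Of these 10, 9 have a probe set annotated to them alone, out of 22180 genes so measured. Fosl1 shares its probe set with Ccdc85b in the platform annotation and is given no value.

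The 6 arrays come from mouse mammary stem cells grown as organoids, 3 of Mll3-null cells and 3 of wild-type (WT) cells, and all were hybridised with biotinylated cRNA made from 100 ng of total RNA. The lines were made by CRISPR to ask what loss of MLL3, a histone methyltransferase of enhancers encoded by Kmt2c, does to these cells. Each array is labelled a biological replicate, but not whether replicates are separate clones, separate cultures or material from separate animals, and the labels give no age, strain or guide. The p-values therefore measure the spread between these samples only.

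FOS-family proteins pair with JUN-family proteins through a leucine zipper and bind short DNA elements, while JUN-family proteins can also pair with each other and with members of the ATF family. MAP kinases act on this system at several levels: ERK signalling switches on Fos and Egr1 transcription through serum response factor (SRF) and its cofactors, and JNK phosphorylates JUN. In mammary epithelium, as in other epithelia, immediate-early genes respond to growth factors, to adhesion and to the handling of the cells, including dissociation.

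The stretches of 150 bases before the annotated start are given for Fos, the founding member of its family, and for Jun, Atf3 and Zfp36, 3 members for which Mll3-null replicate 3 was the lowest (Jun) or the highest (Atf3 and Zfp36) of the 6 arrays. They are RefSeq sequences of build GRCm38.p6, written 5′ to 3′ on the gene's strand, at chr12:85473740-85473889 (plus strand) for Fos, chr4:95052223-95052372 (minus strand) for Jun, chr1:191183334-191183483 (minus strand) for Atf3 and chr7:28379229-28379378 (minus strand) for Zfp36. Capitals mark matches on either strand to TGACG, the core of the cyclic AMP response element, to TGACATCA, a variant element bound by JUN and ATF dimers, to TGAGTCA, the classical AP-1 element, or to the CArG box bound by SRF. No 2 matches overlap.
Fos: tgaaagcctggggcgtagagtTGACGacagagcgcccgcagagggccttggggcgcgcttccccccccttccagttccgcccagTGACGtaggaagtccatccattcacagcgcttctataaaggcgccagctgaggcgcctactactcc
Jun: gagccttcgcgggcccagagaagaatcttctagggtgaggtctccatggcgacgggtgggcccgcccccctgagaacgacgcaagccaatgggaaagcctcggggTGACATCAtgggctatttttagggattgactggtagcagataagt
Atf3: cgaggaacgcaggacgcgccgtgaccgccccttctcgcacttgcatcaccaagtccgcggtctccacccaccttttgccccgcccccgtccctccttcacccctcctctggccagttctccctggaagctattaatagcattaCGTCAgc
Zfp36: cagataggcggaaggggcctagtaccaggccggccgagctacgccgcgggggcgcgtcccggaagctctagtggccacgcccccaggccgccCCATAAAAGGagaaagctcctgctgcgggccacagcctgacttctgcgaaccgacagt

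RefSeq promoter stretches were searched for 8 of the genes. Chromosome 18, where Egr1 lies, was left out of this search of the members, and no stretch of Fosl1 was searched. Nothing is therefore said of elements before Egr1 or Fosl1. TGACG was found before 4 of the 8 (Fos, Fosb, Junb and Atf3) and in 13.3% of all 32851 promoter stretches of this length. TGACATCA was found before Jun alone of the 8 and in 2.32% of all stretches, the CArG box before Zfp36 alone and in 0.916%, and TGAGTCA before 0 of the 8 and in 2.84%. A match describes the letters in this stretch and is not a binding site, and elements farther from the start were not searched.

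The cells carried the epithelial markers that their label calls for. All 8 measured basal markers and all 8 measured luminal markers averaged above 6 (log2), while 0 of 8 fibroblast, 0 of 5 endothelial and 0 of 7 leukocyte markers did. Mll3-null replicate 3 stood apart in its basal markers, with a mean of 7.29 over the 8, against 10.40 and 10.30 in Mll3-null replicates 1 and 2 and 9.88 to 10.27 on the WT arrays. Of the 8, 6 were lowest on that array, while the integrin genes Itga6, at 11.22 its highest value, and Itgb1, at 11.14 inside the range of the others, were not low. Krt14, a basal keratin, was at 6.65 there, against 12.43 and 12.25 in Mll3-null replicates 1 and 2 and 11.74 to 12.41 in WT. In cultures measured in bulk, fewer cells of a type and less RNA per cell cannot be told apart. Kmt2c itself was at 6.11 ± 0.29 in Mll3-null and 6.01 ± 0.55 in WT cells (log2, SD, n = 3 each), and the sources used here do not place its probe set relative to the edit, so this level is no check of the genotype.

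None of the measured AP-1 and immediate-early genes passed the test between Mll3-null and WT cells. By limma's moderated test with Benjamini-Hochberg adjustment over all genes, 0 of the 9 had an adjusted p under 0.05, as did 0.0% of the 22180 genes. At an unadjusted p under 0.05 the count was 1 of 9, Zfp36, against 4.93% of all genes. The groups overlapped for all 9, and they did not overlap for 10.7% of all genes. Of the 9, 6 had a higher and 3 a lower mean in Mll3-null cells, with a median log2 difference of 0.14, where 51.5% of all genes had a higher mean and the median was 0.01.

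**Figure D1:**
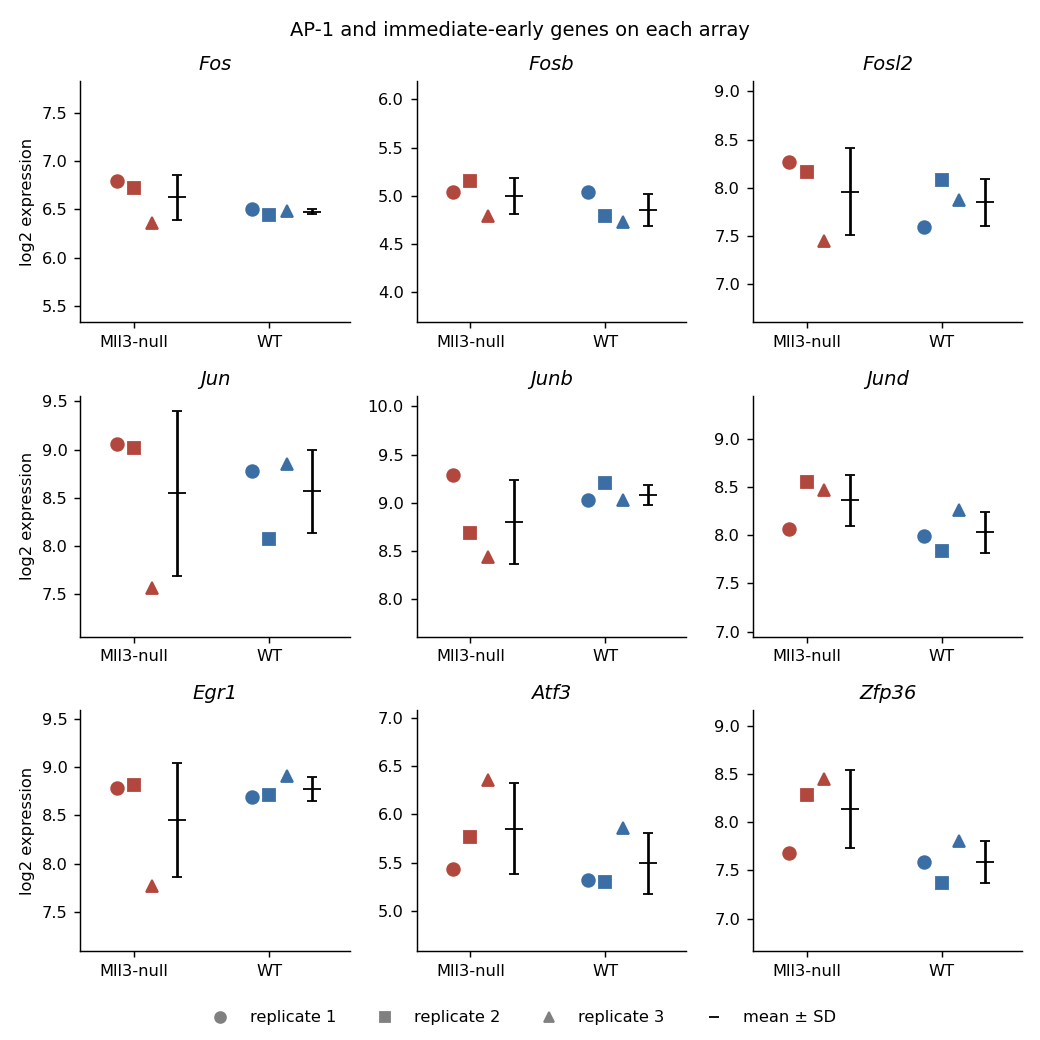
Log2 expression of the 9 measured genes on each array (circles, squares and triangles are replicates 1, 2 and 3; Mll3-null red, WT blue; black marks are mean ± SD, n = 3), every panel spanning the same number of log2 units. Jun lies at 7.56 and Egr1 at 7.77 in Mll3-null replicate 3, under every other array, while the 3 WT values of Fos lie between 6.45 and 6.50.

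Among the FOS family, Fos encodes the prototype immediate-early protein, which cannot pair with itself and needs a JUN partner. Fos was at 6.80, 6.72 and 6.36 on Mll3-null arrays 1 to 3, against 6.50, 6.45 and 6.48 on WT arrays 1 to 3 (log2). The WT arrays lay within a narrow band, with Mll3-null replicates 1 and 2 above it and replicate 3 just below it. The difference, Mll3-null minus WT, was 0.15 ± 0.13 (log2, SE), with a 95% interval from -0.16 to 0.46 (limma, adjusted p = 0.85). Without Mll3-null replicate 3 it was 0.28, with an interval from 0.05 to 0.52, and still did not pass the correction (limma, unadjusted p = 0.026, adjusted p = 0.99).

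Fosb encodes a FOS relative that is also induced as an immediate-early gene. Its values were 5.04, 5.16 and 4.79 on Mll3-null arrays, against 5.04, 4.79 and 4.72 on WT arrays. The groups overlapped almost fully, with Mll3-null replicate 1 level with WT replicate 1. The difference was 0.14 ± 0.14 (log2, SE; interval -0.18 to 0.47; limma, adjusted p = 0.85).

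Fosl2 encodes FRA2, a FOS-family protein that lacks the strong activation domain of FOS and is made more slowly and for longer after a stimulus. It was at 8.27, 8.17 and 7.44 on Mll3-null arrays, against 7.60, 8.08 and 7.88 on WT arrays. Mll3-null cells gave both the 2 highest values and the lowest. The difference of 0.11 ± 0.24 (interval -0.47 to 0.69; limma, adjusted p = 0.94) was 0.37 without Mll3-null replicate 3, -0.05 without Mll3-null replicate 1 and -0.02 without WT replicate 1.

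In the JUN family, Jun encodes the strongest activator, the main partner of FOS and a substrate of JNK. Jun varied most of the 9 genes over the 6 arrays (SD 0.60 on the log2 scale). It was at 9.06, 9.02 and 7.56 on Mll3-null arrays, against 8.78, 8.07 and 8.85 on WT arrays. Mll3-null replicates 1 and 2 were above every WT array and replicate 3 was 0.51 below the lowest of the other 5. The group means were almost equal, 8.55 ± 0.85 in Mll3-null and 8.57 ± 0.43 in WT cells (SD, n = 3 each), and the interval of the difference reached from 0.476-fold to 2.04-fold (limma, adjusted p = 0.99). The difference was -0.02 with all arrays and turned positive without Mll3-null replicate 3 (0.47), without WT replicate 1 (0.08) or without WT replicate 3 (0.12), so it has no settled direction.

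Junb encodes a JUN relative that activates weakly on its own and can restrain JUN. It was at 9.28, 8.69 and 8.44 on Mll3-null arrays, against 9.03, 9.20 and 9.03 on WT arrays. Mll3-null replicates 2 and 3 lay below all WT arrays and replicate 1 above them. The difference was -0.28 ± 0.22 (log2, SE; interval -0.80 to 0.23; limma, adjusted p = 0.84) and -0.10 without Mll3-null replicate 3.

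Jund encodes the JUN protein that is made constitutively and responds least to growth factors. It was at 8.06, 8.55 and 8.47 on Mll3-null arrays, against 7.99, 7.84 and 8.26 on WT arrays. Mll3-null replicates 2 and 3 exceeded all WT arrays, and replicate 1 lay inside the WT range. The difference was 0.33 ± 0.17 (log2, SE; interval -0.08 to 0.74; limma, adjusted p = 0.84). A second probe set of Jund, with a lower mean, was at 5.25, 5.62 and 5.43 on Mll3-null arrays, against 5.38, 5.45 and 5.41 on WT arrays, and the mean of both probe sets differed by 0.18. The 2 probe sets place Mll3-null replicate 1 differently, lowest of all arrays by the second and inside the WT range by the first.

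Egr1 encodes a zinc finger transcription factor, not an AP-1 subunit, that is induced together with Fos through SRF. It was at 8.78, 8.81 and 7.77 on Mll3-null arrays, against 8.69, 8.71 and 8.91 on WT arrays. On the other 5 arrays Egr1 stayed between 8.69 and 8.91, and Mll3-null replicate 3 lay 0.92 below the lowest of them. The difference of -0.32 ± 0.28 (interval 0.5-fold to 1.29-fold; limma, adjusted p = 0.85) was 0.025 without that array, with an interval from -0.25 to 0.30.

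Atf3 encodes a stress-induced ATF-family protein that pairs with JUN proteins and is also a target of ATF4. It was at 5.43, 5.77 and 6.36 on Mll3-null arrays, against 5.32, 5.30 and 5.86 on WT arrays. Its highest value was in Mll3-null replicate 3, where Jun and Egr1 were lowest, and WT replicate 3 exceeded the other 2 Mll3-null arrays. The difference was 0.36 ± 0.27 (log2, SE; interval -0.28 to 1.00; limma, adjusted p = 0.84) and 0.10 without Mll3-null replicate 3.

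Zfp36 encodes tristetraprolin, an RNA-binding protein that is induced as an immediate-early gene and speeds the decay of mRNAs with AU-rich elements, among them those of cytokines. It showed the widest difference of the 9. It was at 7.68, 8.28 and 8.45 on Mll3-null arrays, against 7.59, 7.37 and 7.80 on WT arrays. Mll3-null replicates 2 and 3 lay above all WT arrays, and replicate 1 below WT replicate 3. The mean was 8.14 ± 0.40 in Mll3-null and 7.59 ± 0.22 in WT cells (log2, SD, n = 3 each), a difference of 0.55 ± 0.22 (SE) or 1.46-fold. Its 95% interval ran from 0.02 to 1.07, its unadjusted p was 0.044 and its adjusted p 0.84 (limma), and by p it ranked 940 among all genes. The difference ranged from 0.39 without Mll3-null replicate 3 to 0.78 without Mll3-null replicate 1, and the smallest adjusted p under any setting, 0.20, was reached without Mll3-null replicate 1.

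**Figure D2:**
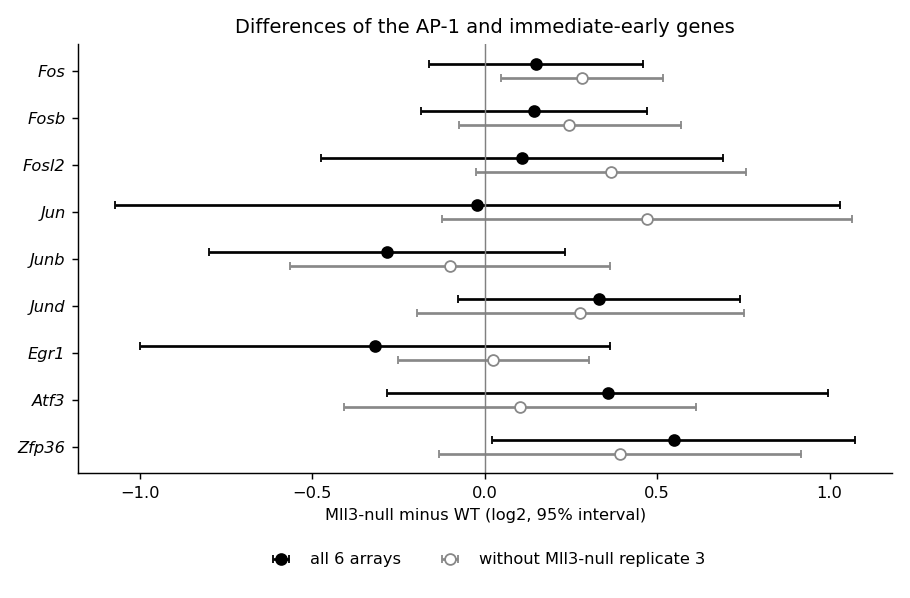
Difference of each gene, Mll3-null minus WT, in log2 units with 95% intervals from limma, with all 6 arrays (filled) and without Mll3-null replicate 3 (open). With all arrays only the interval of Zfp36, 0.02 to 1.07, leaves out 0, and without that array only that of Fos, 0.05 to 0.52, does; neither gene passes the correction over all genes.

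The genes spread more widely among the Mll3-null arrays than among the WT arrays. The SD among Mll3-null arrays exceeded that among WT arrays for 9 of the 9 genes, which also held for 55.1% of all genes. Between Mll3-null replicates 1 and 2 alone the SD exceeded that of WT for 4 of 9, against 42.9% of all genes. For Egr1 the SD was 0.59 among Mll3-null and 0.12 among WT arrays, and for Fos it was 0.23 and 0.03.

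Mll3-null replicate 3 was the lowest of the 6 arrays for 5 genes (Fos, Fosl2, Jun, Junb and Egr1) and the highest for 2 (Atf3 and Zfp36). The background for all genes is 21.4% lowest and 24.5% highest on that array. It lay more than 0.5 log2 units below all 5 others for 2 of the 9 genes, Jun and Egr1, as it did for 3.24% of all genes, and more than 0.5 above all others for 1, Atf3, as for 2.77% of all genes. These counts were made after the values had been seen. In deviation from the 6-array mean, this array had Jun at -0.99, Egr1 at -0.84, Junb at -0.51 and Fosl2 at -0.46, with Atf3 at 0.69, Zfp36 at 0.59 and Jund at 0.28. The same array held the low values of 6 of the 8 basal markers given above, and their part in these values was not tested.

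Without Mll3-null replicate 3, 8 of the 9 genes had a higher mean in Mll3-null cells and only Junb a lower one. The median difference of the 9 was then 0.28. Over all genes the median was 0.00, so about as many genes had a higher as a lower mean, and their exact share was not counted. After correction 0 of the 9 passed, as did 0.0% of all genes. At an unadjusted p under 0.05 there was 1 gene, Fos, against 3.87% of all genes.

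At the other end, WT replicate 2 was the lowest array for 3 genes, as it was for 17.3% of all genes. These were Jund, Atf3 and Zfp36, the genes with the highest Mll3-null means relative to WT. A low WT value in itself raises that difference. Without WT replicate 2 it was 0.24 for Jund, 0.26 for Atf3 and 0.44 for Zfp36, against 0.33, 0.36 and 0.55 with all arrays. The 8 luminal markers had their lowest mean on WT replicate 2, 8.50, and their highest on Mll3-null replicate 3, 9.49. The other Mll3-null arrays were at 8.90 and 9.30 and the other WT arrays at 9.25 and 9.18. The luminal markers did not all move together. Mll3-null replicate 3 was the highest array for 3 of the 8 markers and the lowest for 1, Epcam. Kit was at 5.38 on WT replicate 2 and 8.16 on Mll3-null replicate 3. On the same arrays Epcam was at 10.89 and 10.72, Cd24a at 10.87 and 10.70, and Esr1 at 6.25 and 6.06. The part of these markers in the values of Jund, Atf3 and Zfp36 was not tested.

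**Figure D3:**
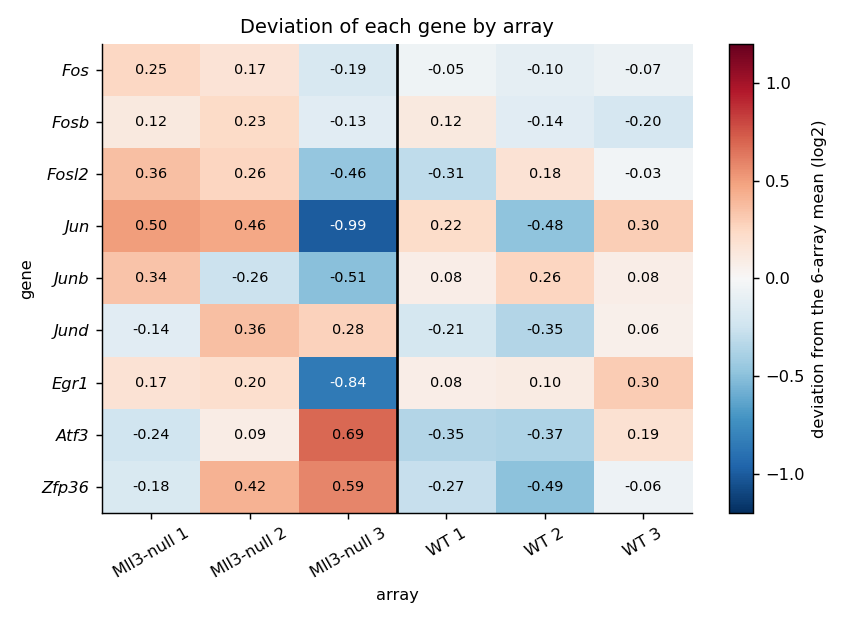
Deviation of each gene from its own mean over the 6 arrays (log2, printed and coloured from blue, below, to red, above), Mll3-null arrays left of the line and WT arrays right. In Mll3-null replicate 3 Jun (-0.99) and Egr1 (-0.84) are far below their means while Atf3 (0.69) and Zfp36 (0.59) are above theirs.

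The genes whose array pattern came closest to that of a member were found for Jun, Egr1 and Zfp36, the 3 with the largest SD, among 8745 other genes with a mean of at least 6, by the root mean square difference of their deviations over the 6 arrays. Jun was followed most closely by Myl9, a regulatory myosin light chain, at 0.138 log2 units, then by the actin-severing protein gene Gsn at 0.213 and the ephrin gene Efnb1 at 0.223. Myl9 was at 8.32, 8.37 and 6.85 on Mll3-null arrays, against 8.18, 7.39 and 7.83 on WT arrays, low like Jun in Mll3-null replicate 3 and WT replicate 2. Egr1 was followed by the RNA-binding protein gene Rbms1 at 0.0744, Ahcy, which encodes adenosylhomocysteinase, at 0.0799 and Cmtm3 at 0.0949. Rbms1 was at 9.03, 8.92 and 7.98 on Mll3-null arrays, against 8.92, 8.99 and 8.98 on WT arrays. Zfp36 was followed by Ppp2r5a, a regulatory subunit of protein phosphatase 2A, at 0.0558, by the epithelial serine protease gene Prss8 at 0.0601 and by Etfrf1 at 0.066. Prss8 was at 8.05, 8.68 and 8.91 on Mll3-null arrays, against 8.04, 7.93 and 8.28 on WT arrays. With 6 arrays and 8745 genes to choose from, close matches of this kind are many, and they describe these arrays only.

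The pathway around AP-1 was read from 7 lists of known members, some of which share genes. In each of them 0 genes passed the test in either direction, and their counts stand against 51.5% of all genes with a higher mean and a median of 0.01. The bZIP factors that can pair with AP-1 proteins or act beside them had a higher mean in 15 of 22 measured genes (median 0.07, and 0.13 without Mll3-null replicate 3). Mll3-null replicate 3 was the highest array for 11 of the 22, as it was for 24.5% of all genes. Atf4, the transcription factor of the integrated stress response, was at 9.96, 9.60 and 10.10 on Mll3-null arrays, against 9.18, 9.36 and 9.34 on WT arrays, and the groups did not overlap. Its difference was 0.59 ± 0.15 (limma, adjusted p = 0.84). Jdp2, which pairs with JUN and represses AP-1 targets, was at 7.77, 7.53 and 7.81 on Mll3-null arrays, against 7.50, 7.11 and 7.22 on WT arrays, also without overlap (0.43 ± 0.14; limma, adjusted p = 0.84). In this list 6 of 22 genes had each Mll3-null value above each WT value, as had 5.44% of all genes, and 0 had the reverse order, as had 5.31% of all genes.

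Other immediate-early genes had a lower mean in 18 of 30 (median -0.10, and 0.04 without Mll3-null replicate 3). Ccn1, a secreted matricellular protein, was at 8.55, 7.76 and 8.07 on Mll3-null arrays, against 8.99, 9.34 and 9.20 on WT arrays. The groups did not overlap, and the difference was -1.05 ± 0.21 (limma, adjusted p = 0.84). Cebpb, a bZIP factor of mammary development, was at 9.34, 9.41 and 9.66 on Mll3-null arrays, against 8.95, 9.20 and 9.25 on WT arrays (0.34 ± 0.13; limma, adjusted p = 0.84), so Ccn1 and Cebpb differed in opposite directions.

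Upstream, of 22 measured genes of the MAP kinase cascade 14 had a lower mean (median -0.04), with differences from -0.351 to 0.595. Map2k1, which encodes the ERK kinase MEK1, was at 8.74, 8.79 and 8.69 on Mll3-null arrays, against 8.44, 8.43 and 8.44 on WT arrays, a tight separation of 0.30 ± 0.08 or 1.23-fold that did not pass the correction (limma, adjusted p = 0.84). Mapkapk2, a kinase downstream of p38, differed by 0.26 ± 0.12 with overlapping groups (limma, adjusted p = 0.84). Of the 11 genes of SRF, its cofactors and their cytoskeletal targets, 6 had a lower mean (median -0.02, and 0.05 without Mll3-null replicate 3). Of the 11, 5 were lowest in Mll3-null replicate 3, as were 21.4% of all genes. The ternary complex factor gene Elk3 was at 8.79, 8.05 and 7.66 on Mll3-null arrays, against 8.90, 8.82 and 8.59 on WT arrays (-0.60 ± 0.28; limma, adjusted p = 0.84). Beta-actin (Actb) was at 10.82, 10.69 and 10.51, against 10.85, 10.85 and 10.88 on WT arrays. Both were lowest in Mll3-null replicate 3.

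Phosphatases and inhibitors that switch MAP kinases off had a higher mean in 9 and a lower one in 8 of 17 (median 0.01). Dusp5, a nuclear phosphatase of ERK, was at 6.78, 6.57 and 6.01 on Mll3-null arrays, against 7.02, 7.24 and 7.26 on WT arrays. The groups did not overlap, and the difference of -0.72 ± 0.20 did not pass the correction (limma, adjusted p = 0.84). Dusp4, a related phosphatase, differed by -0.47 ± 0.20 with overlapping groups (limma, adjusted p = 0.84).

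Genes known as AP-1 targets in other systems had a lower mean in Mll3-null cells in 19 of 21 measured (median -0.52, and -0.30 without Mll3-null replicate 3), and 0 of the 21 passed the test. Their mean deviation from the 6-array mean was 0.44, -0.47 and -0.90 on Mll3-null arrays 1 to 3, against 0.22, 0.52 and 0.19 on WT arrays 1 to 3. Mll3-null replicate 1 lay inside the WT range, and replicates 2 and 3 lay below it. The gelatinase gene Mmp9 was at 4.45, 4.45 and 4.61 on Mll3-null arrays, against 4.74, 5.11 and 5.06 on WT arrays (-0.47 ± 0.12; limma, adjusted p = 0.84). Sprr1a, a protein of the cornified envelope, went the other way, at 9.31, 9.15 and 8.31 on Mll3-null arrays, against 7.56, 8.01 and 8.11 on WT arrays (1.03 ± 0.29; limma, adjusted p = 0.84). Of the 21 targets, 10 were lowest in Mll3-null replicate 3, as were 21.4% of all genes. Each Mll3-null value lay below each WT value in 3 of them, as in 5.31% of all genes, and above in 1, as in 5.44%. The means of Mmp1a and Il6 lie under the array medians in both groups. For Mmp9 the Mll3-null mean of 4.50 lies just above those medians, and with no detection values it is not shown to be above background.

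The mRNAs known to be bound by tristetraprolin had a lower mean in 11 of 16 (median -0.24, and -0.15 without Mll3-null replicate 3). In 3 of the 16 each Mll3-null value lay below each WT value, as in 5.31% of all genes, and in 1 above, as in 5.44%. Both group means of Il1b, Il6, Il10 and Ccl3 lie under the array medians. Csf2, the cytokine GM-CSF, was at 4.56, 3.90 and 3.99 on Mll3-null arrays, against 4.61, 5.49 and 5.36 on WT arrays (limma, adjusted p = 0.84). Its Mll3-null mean of 4.15 lies under the array medians, and with no detection values it is not shown to be above background. Vegfa, the angiogenic growth factor, was at 9.71, 9.39 and 9.46 on Mll3-null arrays, against 8.61, 8.06 and 8.28 on WT arrays (1.21 ± 0.16; limma, adjusted p = 0.84). The mean deviation of this list was 0.34, -0.49 and -0.30 on Mll3-null arrays 1 to 3, against 0.15, 0.18 and 0.12 on WT arrays. Zfp36 was lowest of the Mll3-null arrays in replicate 1, where this list was highest. It was lower still on WT arrays 1 and 2 (7.59 and 7.37), where this list was at 0.15 and 0.18. Among Mll3-null arrays the AP-1 target genes also had their highest mean deviation in replicate 1. How Zfp36 and the tristetraprolin list are linked was not tested.

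**Figure D4:**
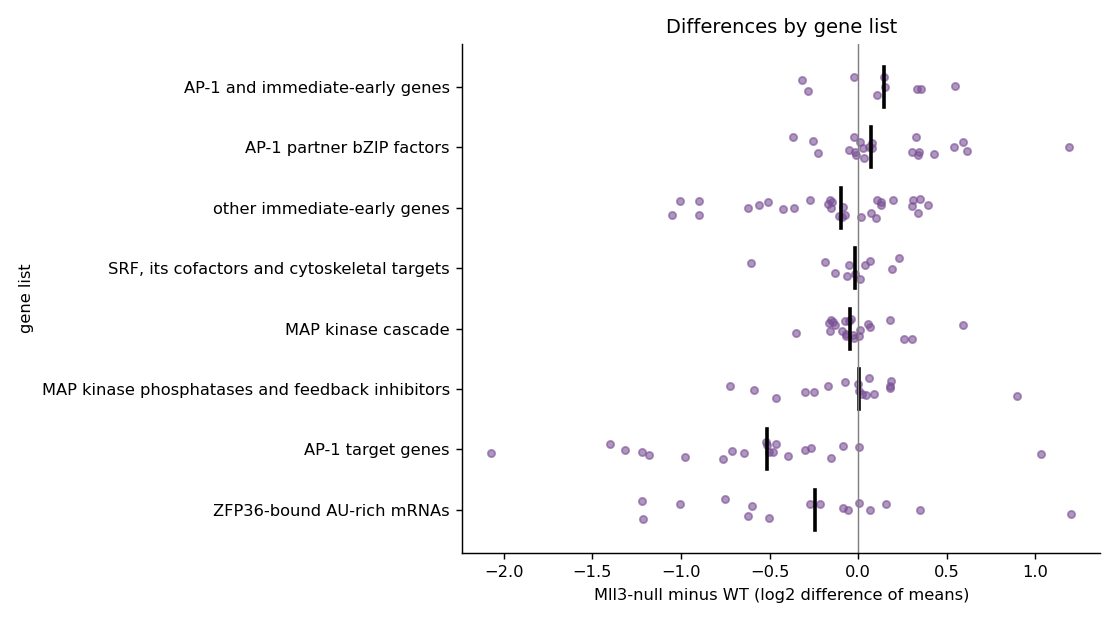
Difference of group means, Mll3-null minus WT (log2), for each measured gene (dots, spread vertically at random) of the AP-1 and immediate-early genes and of the 7 pathway lists, with the list median as a black bar. The AP-1 target genes have the lowest median, -0.52, while the medians of the other 7 rows lie between -0.24 and 0.14.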

How the data were processed

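The deposited values are log2 expression, 1 per probe set and array, for 41345 probe sets on 6 Affymetrix arrays. Per the submitters' processing notes the authors used Affymetrix Expression Console; for its version, summarization method and genome build the sources used here give nothing. Values run from 1.72 to 13.56 with array medians of 4.35 to 4.40, so the arrays were on a common scale, which hides any shift in overall RNA content. No detection values were used.

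Of the probe sets, 23521 have exactly 1 symbol; the one with the highest mean stood for each of 22180 genes. Mll3-null was compared with WT by linear models in R 4.3.3 (limma 3.58.1, moderated with eBayes, genotype as the only term, two-sided, Benjamini-Hochberg over all genes, threshold 0.05). On simulated data the same fit recovered 76.1% of 2-fold changes with 7 false calls. The simulated noise was independent between genes and held no outlying array, so that share does not carry over to these arrays. Precision is limited by the number of arrays.

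The members and lists were chosen with earlier results of these data known. Of 183 listed genes, 168 had a value. Named were all members, the 2 genes of smallest p in each pathway list (no gene passed), Kmt2c, markers where a result turns on them, and the nearest genes of the 3 most variable members. Both groups are numbered 1 to 3, without a label that links equal numbers, so no block was used.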

Additional observations from a re-analysis of the deposited data

How the results depend on the processing

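Under 13 alternatives (another spread model, array weights, dim genes left out, quantile normalization, median centring, the mean of a gene's probe sets, the replicate block and leaving out each array) 0 of the 9 members and 0 of all genes passed an adjusted p of 0.05, and 0 passed 0.01 with all arrays. The members with a higher Mll3-null mean numbered 6, 7 with array weights, and 5 to 8 when 1 array was left out (5 without Mll3-null replicate 1, 8 without Mll3-null replicate 3). The direction turned in 7 of 117 member differences: Jun was at 0.22 with array weights, and between -0.28 and 0.47 when 1 array was left out, Fosl2 between -0.046 and 0.367, and Egr1 between -0.496 and 0.025. The array weights are estimated from the arrays' own scatter, and the other turns came with 1 array left out. With all arrays the differences were small beside their SE, -0.02 ± 0.44 for Jun, 0.11 ± 0.24 for Fosl2 and -0.32 ± 0.28 for Egr1. All genes at an unadjusted p under 0.05 numbered 1093, against 2504 with array weights, 721 with dim genes left out (fewer genes tested), 2742 with Mll3-null replicate 1 left out and 716 with Mll3-null replicate 2 left out.

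The correlation of deviations from the group means was 0.04, 0.08 and 0.31 for the same-numbered arrays 1, 2 and 3. For arrays of different number it ran from -0.29 to 0.22. These values do not settle whether the numbers pair the samples. With no label that links them, they were not taken to do so. With the replicate block 0 members passed, 6 had a higher mean, and 1290 genes had an unadjusted p under 0.05. With 3 arrays a group the interval of Jun does not leave out changes of about 2-fold in either direction. The interval of Egr1 reaches a decrease of about that size, and those of Atf3 and Zfp36 an increase. Nothing shows that any of the 9 genes was equal in the groups.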
